A study of Mus musculus with 6 samples.

Results

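The genes described here encode enzymes and regulators of cholesterol and fatty acid synthesis. They were chosen by name, as 34 gene symbols of the array annotation, 24 of the sterol pathway and 10 of the fatty acid pathway, out of 18193 genes that the arrays measured. The choice was made with earlier results of these data known. All 34 were measured, by 81 of 45037 probe sets, and the brightest probe set of a gene over the 6 arrays stands for it. Mutant RPCs (retinal progenitor cells) were Pax6 loxP/loxP;α-Cre and control RPCs were Pax6 +/+;α-Cre. Both came from ICR embryos at embryonic day 12, and both carried the α-Cre transgene, which expresses Cre and GFP in the distal optic cup. GFP-positive cells were sorted, and each of the 3 mutant and 3 control samples was a pool of about 1800000 cells on 1 array. The transgene is at times inactive within its domain, which leaves patches of cells without recombination, and each pool combines embryos.

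Cells make cholesterol from acetyl-CoA. The mevalonate pathway forms isoprenoid units, farnesyl diphosphate is joined into squalene, and squalene is closed into lanosterol and converted to cholesterol. The transcription factor SREBP2 drives these genes when sterols are scarce, the related SREBP1 drives fatty acid synthesis, and SCAP and the INSIG proteins hold both factors in the endoplasmic reticulum when sterols are plentiful. In embryos, cholesterol is needed for membranes and is attached to Hedgehog ligands.

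Many of these genes have promoter elements for the SREBPs and their partner NF-Y, so the start regions of 6 members that were lower in mutant RPCs on at least 1 probe set are shown. Windows were taken from RefSeq (GRCm38.p6) as the 250 bases before an annotated start, and 27 of the 34 members had at least 1. The start regions of Fdps, Fdft1, Sqle, Stard4, Scd1, Scd2 and Fads1 were not analysed here. Capitals mark the SREBP element TCACNCCAC and the NF-Y box CCAAT, each searched on both strands, and 2 boxes that overlap, as in Fasn, run together. Dhcr7 has 3 windows, and the 1 with boxes is shown. Msmo1 and Elovl6 were also lower on 1 probe set each, and their windows are not shown. That of Msmo1 held 3 NF-Y boxes, that of Elovl6 held 0, and neither held the SREBP element.
Hmgcs1, chr13:119690101-119690350, plus strand: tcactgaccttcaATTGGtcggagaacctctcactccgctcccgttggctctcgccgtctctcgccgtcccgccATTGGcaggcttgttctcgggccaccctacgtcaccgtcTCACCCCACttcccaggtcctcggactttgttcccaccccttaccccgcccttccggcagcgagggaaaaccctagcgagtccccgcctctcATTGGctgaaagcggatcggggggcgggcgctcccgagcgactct
Idi1, chr13:8885356-8885605, plus strand: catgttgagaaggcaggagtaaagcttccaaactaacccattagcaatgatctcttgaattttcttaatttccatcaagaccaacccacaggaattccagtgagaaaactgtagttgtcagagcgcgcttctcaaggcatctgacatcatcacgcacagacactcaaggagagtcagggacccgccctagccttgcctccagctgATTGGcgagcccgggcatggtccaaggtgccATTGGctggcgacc
Lss, chr10:76531355-76531604, plus strand: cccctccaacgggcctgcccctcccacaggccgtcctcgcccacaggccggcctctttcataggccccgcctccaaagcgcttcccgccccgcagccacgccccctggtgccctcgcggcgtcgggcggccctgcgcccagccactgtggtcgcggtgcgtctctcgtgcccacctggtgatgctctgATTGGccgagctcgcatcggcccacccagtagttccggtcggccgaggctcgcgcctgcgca
Dhcr7, chr7:143829964-143830213, plus strand: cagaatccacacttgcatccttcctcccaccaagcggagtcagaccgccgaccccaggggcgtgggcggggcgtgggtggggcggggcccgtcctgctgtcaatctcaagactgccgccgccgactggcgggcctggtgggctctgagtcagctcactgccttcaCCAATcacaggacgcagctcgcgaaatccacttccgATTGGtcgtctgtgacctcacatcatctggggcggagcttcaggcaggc
Insig1, chr5:28071162-28071411, plus strand: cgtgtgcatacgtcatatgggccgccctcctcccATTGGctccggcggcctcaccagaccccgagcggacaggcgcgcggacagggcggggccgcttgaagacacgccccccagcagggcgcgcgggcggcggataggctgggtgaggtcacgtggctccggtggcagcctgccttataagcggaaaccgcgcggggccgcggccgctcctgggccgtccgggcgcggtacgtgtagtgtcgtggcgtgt
Fasn, chr11:120824548-120824797, minus strand: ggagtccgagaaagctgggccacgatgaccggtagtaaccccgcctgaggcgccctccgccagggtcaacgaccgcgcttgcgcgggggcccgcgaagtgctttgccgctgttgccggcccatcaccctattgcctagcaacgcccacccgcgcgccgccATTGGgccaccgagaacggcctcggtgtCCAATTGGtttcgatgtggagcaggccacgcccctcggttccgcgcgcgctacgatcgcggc
The NF-Y box was in the windows of 19 of 20 sterol genes (95%) and 3 of 7 fatty acid genes (42.9%), against 39.5% of 17492 protein-coding genes. By windows, of which a gene can have several, it was in 20 of 28 sterol windows (71.4%), against 35.4% of protein-coding windows. The SREBP element as searched was in 1 of 20 sterol genes (5%) and 0 of 7 fatty acid genes, against 1.2% of protein-coding genes. That gene was Hmgcs1, where it read TCACCCCAC and began 137 bases before the start. Variants of the element and bases outside the windows were not searched. These matches describe letters and do not show binding.

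In mutant RPCs several sterol genes were lower by small amounts, and none was higher. Of the 24 sterol genes, 6 had a Benjamini-Hochberg adjusted p under 0.10 from limma and were lower, namely Idi1, Sqle, Lss, Dhcr7, Insig1 and Stard4. This was 25% of the sterol genes, and 5.22% of all genes were lower by that rule. No sterol gene was higher by it (7.15% of all genes were) or at an unadjusted p under 0.05 (2336 of 18193 genes were). The log2 fold change, given here as the log2 difference of mutant minus control, was negative for 21 of the 24 (52.9% of all genes), and its median was -0.19, against -0.01 over all genes. For 17 of the 24 all mutant arrays lay below all control arrays (70.8%, against 16.4% of all genes), and for Insig2 they lay above (17% of all genes). None of the 24 also reached a fold change of 1.5, the further threshold of the methods, which 0.918% of all genes passed as lower and 2.28% as higher. The 6 lower genes became 2 without mutant replicate 1 (Lss and Dhcr7), 2 without mutant replicate 2 (Sqle and Dhcr7), 1 without mutant replicate 3 (Dhcr7) and 4 without control replicate 1. In the same fits the lower probe sets of the whole array, 2049 with all arrays, became 816, 900 and 880 without mutant replicates 1, 2 and 3 and 1538 without control replicate 1. In bulk samples, fewer cells of a type and less RNA per cell cannot be told apart.

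Of the 10 fatty acid genes, Fasn and Scd1 were lower with an adjusted p under 0.10 from limma. None was higher by it (7.15% of all genes were) or at an unadjusted p under 0.05 (2336 of 18193 genes were). None among 10 genes is near those shares. Fasn and Scd1 are 20% of the 10, against the same 5.22% of all genes. The median log2 difference was -0.16, against -0.01 over all genes, and 8 of the 10 values were negative (52.9% of all genes). All mutant arrays lay below all control arrays for 4 of the 10 (40%, against 16.4% of all genes) and above them for 1, Elovl6 (17% of all genes). Scd1, alone of the 34 genes, also reached a fold change of 1.5. On leaving out 1 array at a time, Fasn was called only without mutant replicate 2, so that 1 gene, Scd1, was left in each of the other fits.

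**Figure D1:**
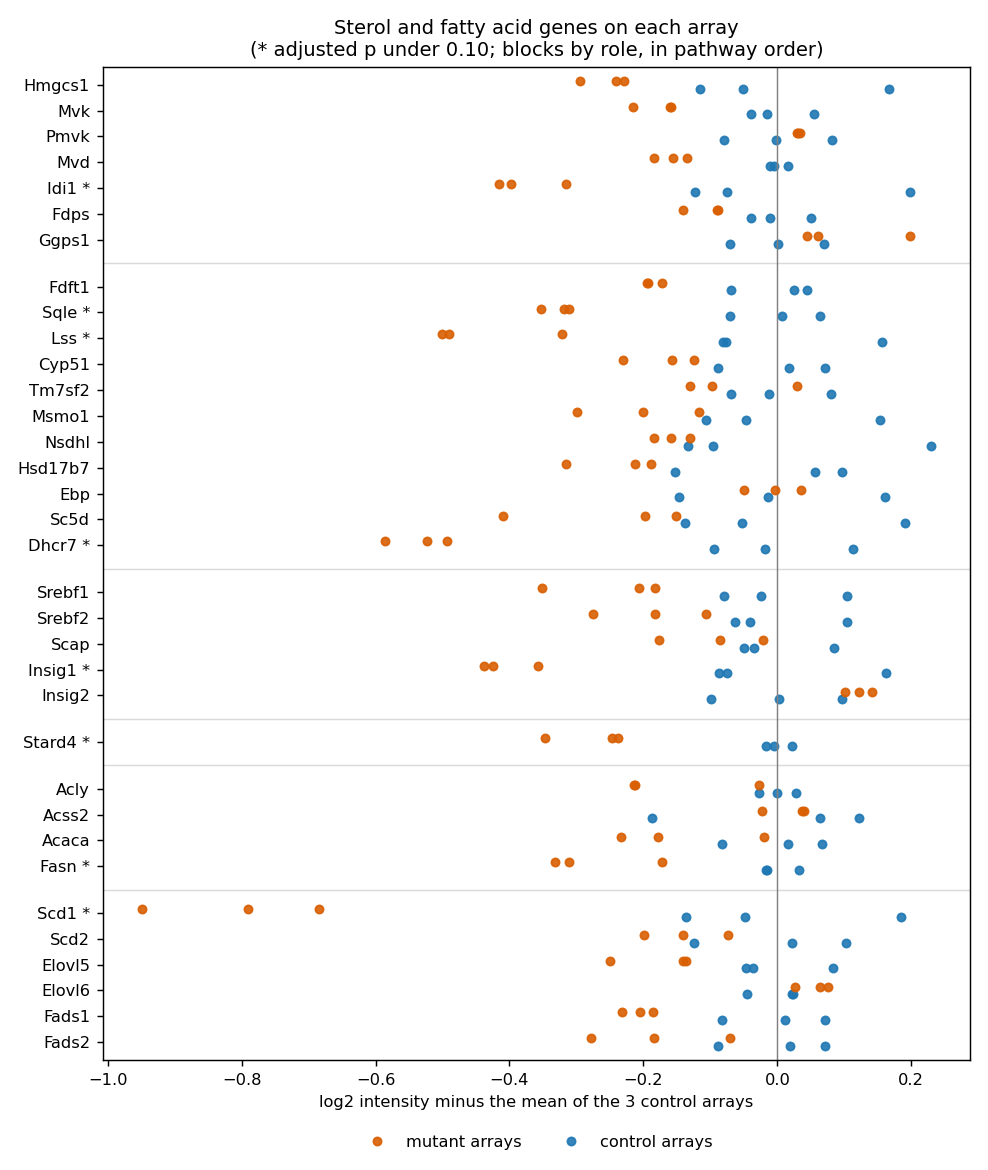
Log2 intensity of the 34 genes on each array, as the difference from the mean of the 3 control arrays (horizontal axis), with genes in rows grouped by role, mutant arrays in orange and control arrays in blue. The orange points lie left of all blue points in 21 rows, farthest for Scd1, and a star marks the 8 genes with an adjusted p under 0.10.

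Across the pathway every mutant array had a lower median than every control array. Relative to the mean of the control arrays, the median over the 24 sterol genes was -0.18, -0.16 and -0.21 (log2) on mutant arrays 1, 2 and 3, against -0.07, 0.06 and -0.04 on control arrays 1, 2 and 3. Over the 10 fatty acid genes it was -0.20, -0.07 and -0.20 on mutant arrays, against 0.00, 0.02 and 0.01 on control arrays, so that mutant replicate 2 lay nearer to the control arrays than to the other mutant arrays. Over all genes it stayed between -0.01 and 0.00 on every array. Control replicate 2 was the highest array for 12 of the 24 sterol genes (50%, against 20.9% of all genes), and mutant replicate 3 was the lowest for 16. Without control replicate 2 the sterol median was -0.16 and 5 sterol genes were lower, Idi1 being the gene lost.

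The 7 enzymes from HMG-CoA synthesis to the isoprenoid diphosphates had a median log2 difference of -0.16, and Idi1 alone of them passed the test. Idi1 isomerises isopentenyl diphosphate, the unit from which isoprenoids are built. Its log2 intensities were 8.20, 8.12 and 8.10 in mutant and 8.44, 8.71 and 8.39 in control RPCs. The genotypes did not overlap, and control replicate 2 was the highest array. The difference was -0.38 (SE 0.10, limma adjusted p = 0.0727), with mutant RPCs at 0.771 of the control level. Idi1 was not called without mutant replicate 1 (-0.41), 2 (-0.37) or 3 (-0.36), or control replicate 1 (-0.41) or 2 (-0.28), nor without moderation of the variance (adjusted p = 0.202). A dimmer Idi1 probe set differed by -0.18 without a call.

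Hmgcs1, the synthase that makes HMG-CoA, has 5 probe sets, and on each of them all mutant arrays lay below all control arrays. The brightest was at 10.69, 10.70 and 10.63 in mutant and 10.81, 11.09 and 10.88 in control RPCs, with control replicate 2 highest. It differed by -0.26 (limma adjusted p = 0.147) and missed the threshold. Of its other probe sets 3 were lower with an adjusted p under 0.10, by log2 differences of -0.25, -0.28 and -0.74, and the last was at -0.12. The largest of these was on the dimmest probe set, at 4.77, 4.31 and 4.16 in mutant and 4.98, 5.50 and 4.98 in control RPCs, and also met the rule of 1.5-fold.

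The other enzymes of this stretch did not pass the test. Mvk, mevalonate kinase, was at 6.23, 6.29 and 6.29 in mutant and 6.43, 6.41 and 6.50 in control RPCs, a difference of -0.18 (limma adjusted p = 0.145). Mvd, mevalonate diphosphate decarboxylase, differed by -0.16 (limma adjusted p = 0.160), and Fdps, farnesyl diphosphate synthase, by -0.11 (limma adjusted p = 0.354). For all 3 the mutant arrays lay below the control arrays on these brightest probe sets. Dimmer probe sets differed by -0.02 (Mvk), -0.09 (Mvd) and 0.11 (Fdps), with overlapping arrays and no call. Pmvk, phosphomevalonate kinase, was at 6.77, 6.76 and 6.77 in mutant and 6.65, 6.73 and 6.82 in control RPCs, so that the mutant values lay inside the control range, and its difference had a 95% interval of -0.12 to 0.18. Ggps1, which makes geranylgeranyl diphosphate for protein prenylation, a branch beside cholesterol, differed by 0.10 (limma adjusted p = 0.477).

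All 11 enzymes from squalene synthase onwards had negative log2 differences, with a median of -0.21. Fdft1, squalene synthase, differed by -0.19 (limma adjusted p = 0.135) and by -0.21 on its next probe set, in both with the genotypes apart. Its dimmest probe sets differed by -0.15 and -0.34 with overlapping arrays and no call. Sqle, squalene epoxidase, takes the first oxygen-dependent step. It was at 8.54, 8.55 and 8.51 in mutant and 8.87, 8.93 and 8.79 in control RPCs. The mutant arrays lay close together and below every control array, and the difference was -0.33 (SE 0.06, limma adjusted p = 0.0315), with mutant RPCs at 0.797 of the control level. Sqle was not called without mutant replicate 1 (-0.33) or 3 (-0.31).

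Lss, lanosterol synthase, closes the sterol rings. Its brightest probe set was at 6.35, 6.18 and 6.17 in mutant and 6.60, 6.83 and 6.59 in control RPCs, a difference of -0.44 (SE 0.09, limma adjusted p = 0.0421). A further Lss probe set was at 5.05, 4.88 and 5.10 in mutant and 5.61, 5.50 and 5.46 in control RPCs, and there the difference was -0.51 (SE 0.08, limma adjusted p = 0.0183). The genotypes did not overlap on either, and control replicate 2 was highest on the brightest. The remaining Lss probe set, below the array medians of 3.68 to 3.71, differed by 0.05. The brightest was not called without mutant replicate 2 (-0.41) or 3 (-0.41), nor without moderation of the variance (adjusted p = 0.153).

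Dhcr7, 7-dehydrocholesterol reductase, makes cholesterol in a final step of the pathway, and its loss in humans causes Smith-Lemli-Opitz syndrome. It had the largest difference of the sterol genes. Its 1 probe set was at 7.08, 7.05 and 6.99 in mutant and 7.56, 7.69 and 7.48 in control RPCs. The gap between the genotypes was wider than the spread within either, and the difference was -0.53 (SE 0.07, limma adjusted p = 0.0123), with mutant RPCs at 0.691 of the control level. Dhcr7 kept an adjusted p under 0.10 in all 15 alternative analyses, from 0.00177 to 0.0781. With 1 probe set, the alternatives in the choice of probe set left its values unchanged.

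The enzymes between lanosterol and 7-dehydrocholesterol differed by less and did not pass on their brightest probe sets. Msmo1, the C4-methylsterol oxidase, was at 9.24, 9.16 and 9.06 in mutant and 9.25, 9.51 and 9.31 in control RPCs, a difference of -0.21 (limma adjusted p = 0.248). A dim Msmo1 probe set was lower, at 4.23, 4.22 and 3.93 in mutant and 4.78, 4.58 and 5.11 in control RPCs, with a difference of -0.69 (SE 0.15, limma adjusted p = 0.0454) that also met the rule of 1.5-fold. Cyp51, the lanosterol demethylase, differed by -0.17 (limma adjusted p = 0.216), and Sc5d, the sterol C5-desaturase, by -0.25 (limma adjusted p = 0.247), both with the genotypes apart. Dimmer probe sets differed by -0.19 and -0.10 (Cyp51) and by -0.12 and -0.08 (Sc5d), without a call. Arrays overlapped on those at -0.10 and -0.12. Hsd17b7, a sterol ketoreductase, differed by -0.24 (limma adjusted p = 0.167), and by -0.33 and -0.41 on dimmer probe sets, on all 3 with the genotypes apart. The dimmest Hsd17b7 probe set differed by -0.06 with overlapping arrays. Nsdhl, the C4-decarboxylating dehydrogenase, and Tm7sf2, a sterol C14-reductase, had overlapping arrays and differences of -0.16 and -0.07. For Ebp, the sterol isomerase, the difference was -0.01 with a 95% interval of -0.21 to 0.20.

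**Figure D2:**
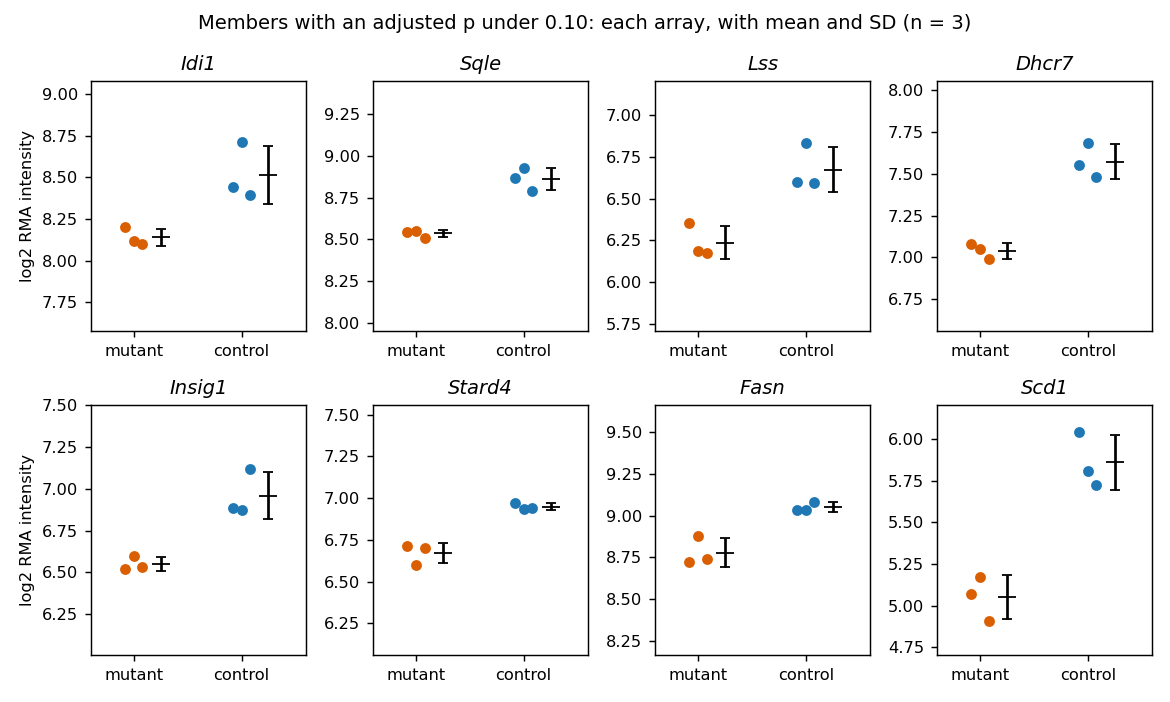
Log2 intensity (vertical axis, with the same span of 1.5 in every panel) of the 8 genes with an adjusted p under 0.10, with mutant arrays in orange, control arrays in blue and black bars for mean and SD (n = 3 each). All mutant arrays lie below all control arrays in every panel, and the gap is widest for Scd1, with means of 5.05 in mutant and 5.86 in control RPCs.

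Among the genes that sense sterols, Insig1 and Insig2 had opposite signs. Insig1 retains the SCAP-SREBP complex and is itself an SREBP target. It was at 6.52, 6.60 and 6.53 in mutant and 6.88, 6.87 and 7.12 in control RPCs. The genotypes did not overlap, and the difference was -0.41 (SE 0.08, limma adjusted p = 0.0404), with mutant RPCs at 0.754 of the control level. It was not called without mutant replicate 1 (-0.39), 2 (-0.43) or 3 (-0.40), nor without moderation of the variance (adjusted p = 0.139). Insig2 also retains the complex. Its 3 probe sets, with all mutant arrays above all control arrays on each, differed by 0.12, 0.23 and 0.36, and none passed the threshold (limma adjusted p = 0.369, 0.223 and 0.202). The difference between Insig1 and Insig2 was not tested.

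The SREBP genes did not pass the test, although their arrays were apart. Srebf1 was at 7.72, 7.69 and 7.55 in mutant and 7.82, 8.0 and 7.87 in control RPCs, a difference of -0.25 (limma adjusted p = 0.129). Srebf2 was at 7.93, 8.10 and 8.02 in mutant and 8.14, 8.16 and 8.31 in control RPCs, a difference of -0.19 (limma adjusted p = 0.220), and its other probe set was at -0.19. For both genes every mutant array was below every control array. Scap, the escort of the SREBPs, differed by -0.10 with overlapping arrays.

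Stard4, a carrier of cholesterol between membranes, was read differently by its 3 probe sets. The brightest was at 6.71, 6.60 and 6.70 in mutant and 6.97, 6.93 and 6.94 in control RPCs. The genotypes did not overlap, and the difference was -0.28 (SE 0.06, limma adjusted p = 0.0471). The others differed by -0.02 and -0.17 with overlapping arrays, and the median of the 3 gave -0.10 without a call. Stard4 was not called without mutant replicate 1 (-0.30), 2 (-0.24) or 3 (-0.29), or control replicate 1 (-0.27) or 3 (-0.28) either.

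Fatty acid synthesis starts with acetyl-CoA. Acly, ATP citrate lyase, differed by -0.15 (limma adjusted p = 0.287), and Acaca, acetyl-CoA carboxylase, by -0.14 (limma adjusted p = 0.353), both with mutant replicate 2 at or above the lowest control array. Acss2, acetyl-CoA synthetase, differed by 0.02 with a 95% interval of -0.20 to 0.23. Fasn, the synthase of palmitate, was at 8.72, 8.88 and 8.74 in mutant and 9.03, 9.03 and 9.08 in control RPCs. The genotypes did not overlap, mutant replicate 2 being the highest mutant array, and the difference was -0.27 (SE 0.07, limma adjusted p = 0.0657), with mutant RPCs at 0.828 of the control level. Fasn was not called without mutant replicate 1 (-0.24) or 3 (-0.25), or control replicate 1 (-0.28), 2 (-0.28) or 3 (-0.26), nor without moderation of the variance (adjusted p = 0.128).

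Desaturases and elongases act on the finished chain. Scd1, a stearoyl-CoA desaturase that makes oleate, had the largest difference of the 34 genes. It was at 5.07, 5.17 and 4.91 in mutant and 6.04, 5.81 and 5.72 in control RPCs. The genotypes lay apart, and the difference was -0.81 (SE 0.11, limma adjusted p = 0.011), with mutant RPCs at 0.571 of the control level. Scd1 kept an adjusted p under 0.10 in all 15 alternatives, among them a choice of probe set that kept the same probe set. A dimmer probe set, below the array medians, differed by -0.25 (limma adjusted p = 0.286), and the median of both, -0.53, no longer met the rule of 1.5-fold. Scd2, a related desaturase, was at 10.97, 11.04 and 10.91 in mutant and 10.98, 11.21 and 11.13 in control RPCs, which overlap, and differed by -0.14 (limma adjusted p = 0.369). The difference between the desaturases was not tested.

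The enzymes of polyunsaturated fatty acids did not pass on their brightest probe sets. Fads1, the delta-5 desaturase, was at 8.40, 8.36 and 8.38 in mutant and 8.66, 8.51 and 8.60 in control RPCs, a difference of -0.21 (limma adjusted p = 0.121). A dim Fads1 probe set was lower, with a difference of -0.43 (SE 0.11, limma adjusted p = 0.0751). Fads2, the delta-6 desaturase, differed by -0.18 (limma adjusted p = 0.256) with overlapping arrays, and Elovl5, an elongase of the same route, by -0.18 (limma adjusted p = 0.201) with the genotypes apart. Elovl6, which elongates palmitate, gave both directions. Its brighter probe sets differed by 0.06 and 0.14, with all mutant arrays above all control arrays and no call. Its dimmest was lower, at 4.97, 5.23 and 5.17 in mutant and 5.58, 5.52 and 5.70 in control RPCs, a difference of -0.48 (SE 0.09, limma adjusted p = 0.0307). Which part of a transcript each probe set reads was not analysed here.

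By probe sets, 15 of the 81 were lower with an adjusted p under 0.10 (18.5%, against 4.55% of all probe sets) and none was higher (5.04% of all). At an unadjusted p under 0.05, 2 were higher, both of Insig2 (4476 of 45037 probe sets were). At 1.5-fold 3 were lower (0.984% of all), 1 each of Hmgcs1, Msmo1 and Scd1, and none was higher (1.67% of all). The log2 difference was negative for 65 of the 81 (55.7% of all). All mutant arrays lay below all control arrays for 38 of the 81 (46.9%, against 15.1% of all) and above for 5 (13.2% of all), which were those of Insig2 and the brighter Elovl6 pair. Probe sets of 1 gene are not independent.

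**Figure D3:**
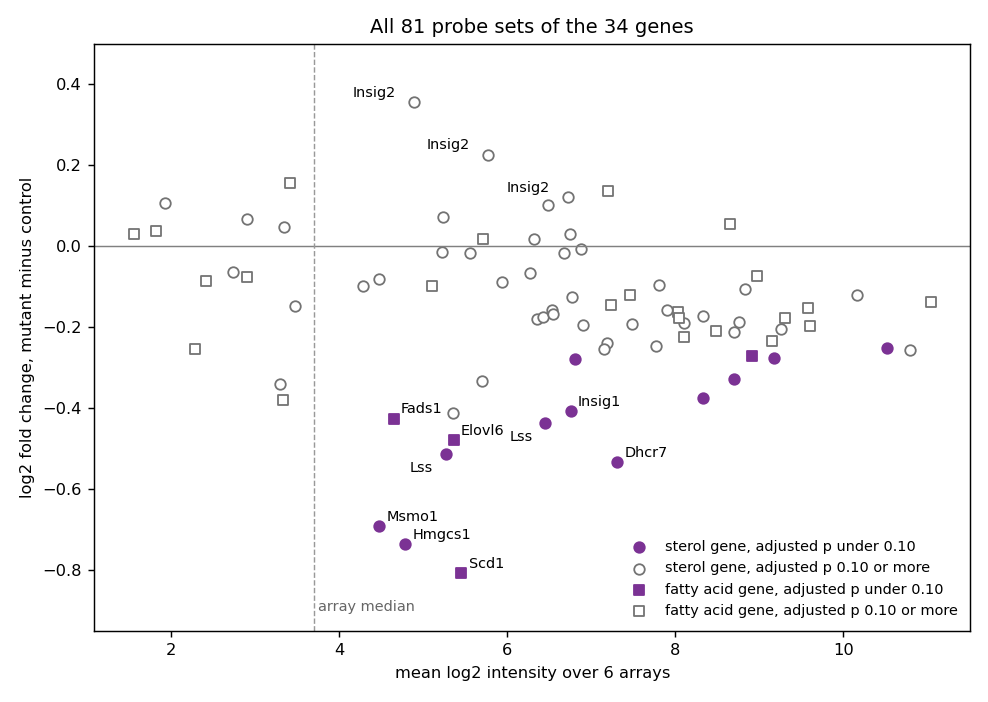
Log2 difference, mutant minus control, of the 81 probe sets (vertical axis) against their mean log2 intensity over 6 arrays (horizontal axis), with circles for sterol genes, squares for fatty acid genes and filled symbols for an adjusted p under 0.10. The filled symbols all lie below 0, and the 3 Insig2 probe sets lie at 0.12, 0.23 and 0.36.

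Genes beside the pathway were read from the same fit. Of 15 genes of sterol uptake, storage and efflux, 2 were higher by limma with an adjusted p under 0.10 and none was lower (5.22% of all genes were). These 2 are 13.3% of the 15, against 7.15% of all genes. At an unadjusted limma p under 0.05, 7 of the 15 were higher and 1 was lower. Of all 18193 genes, 2336 were higher and 2108 lower at that p. The median log2 difference of the 15 was 0.16. The 2, named after their values were seen, were Npc1 and Mylip. Npc1, which exports cholesterol from lysosomes, was at 6.81, 6.85 and 6.74 in mutant and 6.34, 6.32 and 6.31 in control RPCs, a difference of 0.48 (SE 0.06, limma adjusted p = 0.00997). Mylip, the ubiquitin ligase through which liver X receptors limit lipoprotein uptake, was at 6.63, 6.74 and 6.72 in mutant and 6.30, 6.22 and 6.27 in control RPCs, a difference of 0.43 (SE 0.06, limma adjusted p = 0.0133). In both, every mutant array was above every control array.

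Of 9 genes that use isoprenoids, none was called by limma in either direction and none had an unadjusted p under 0.05. Of all genes 5.22% were called lower and 7.15% higher, so that none among so few genes is near those shares. Of 20 other genes of fatty acid synthesis, 1 was lower (5%, against 5.22% of all genes) and 1 was higher (5%, against 7.15%), shares near or under those of all genes. Elovl2, an elongase of very long polyunsaturated chains, was lower at 1.5-fold, at 5.20, 4.91 and 5.04 in mutant and 5.81, 5.75 and 6.13 in control RPCs, a difference of -0.85 (SE 0.12, limma adjusted p = 0.0139). The higher gene, named after its value was seen, was Elovl1, an elongase of saturated chains, with 0.24 (limma adjusted p = 0.0993). Of 16 genes of fatty acid oxidation, 6 were higher (37.5%, against 7.15% of all genes), and the median was 0.14. None was lower (5.22% of all genes were), also at an unadjusted p under 0.05 (2108 of 18193 genes were). Acaa2, the mitochondrial thiolase, was higher at 1.5-fold, at 7.93, 7.86 and 7.89 in mutant and 7.21, 7.18 and 7.15 in control RPCs, a difference of 0.71 (SE 0.06, limma adjusted p = 0.00315). The genotypes did not overlap in any of these named genes.

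Marker lists also moved with genotype, and their part in the values of the sterol and fatty acid genes was not tested. Of all genes, 5.22% were lower and 7.15% were higher by limma with an adjusted p under 0.10. Of 20 S phase genes 16 were lower by that rule (80%), with a median log2 difference of -0.33. Their summed intensities were 10970 to 11310 in mutant and 13690 to 14200 in control RPCs. Of 9 retinal progenitor markers 5 were lower (55.6%), with sums of 5025 to 5191 in mutant and 7844 to 8362 in control RPCs. Of 7 neuronal markers 6 were lower (85.7%), with sums of 222 to 275 in mutant and 402 to 626 in control RPCs. Some markers of other tissues were higher. Of 11 pigment epithelium markers 10 were higher (90.9%), with sums of 9153 to 9252 in mutant and 5826 to 7096 in control RPCs. Rpe65, of the same list, lay below the array median on all arrays. Of 11 lens markers 3 were higher (27.3%), with sums of 2634 to 3097 in mutant and 1224 to 2328 in control RPCs. Of 11 mesenchyme markers 6 were higher (54.5%), with sums of 940 to 1277 in mutant and 594 to 635 in control RPCs. Of 9 endothelial markers 7 were higher (77.8%), with sums of 1193 to 1294 in mutant and 668 to 926 in control RPCs. Of 9 blood markers only 1 was higher (11.1%, near the 7.15% of all genes). The blood sums were 12140 to 12930 in mutant and 8676 to 11610 in control RPCs. Pax6 itself was lower on 1 of its 5 probe sets, at 4.79, 4.88 and 4.45 in mutant and 6.34, 6.44 and 6.14 in control RPCs, a difference of -1.60 (SE 0.13, limma adjusted p = 0.00329), and the 4 others lay between -0.22 and 0.10. Which of them read the deleted part was not analysed here.

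**Figure D4:**
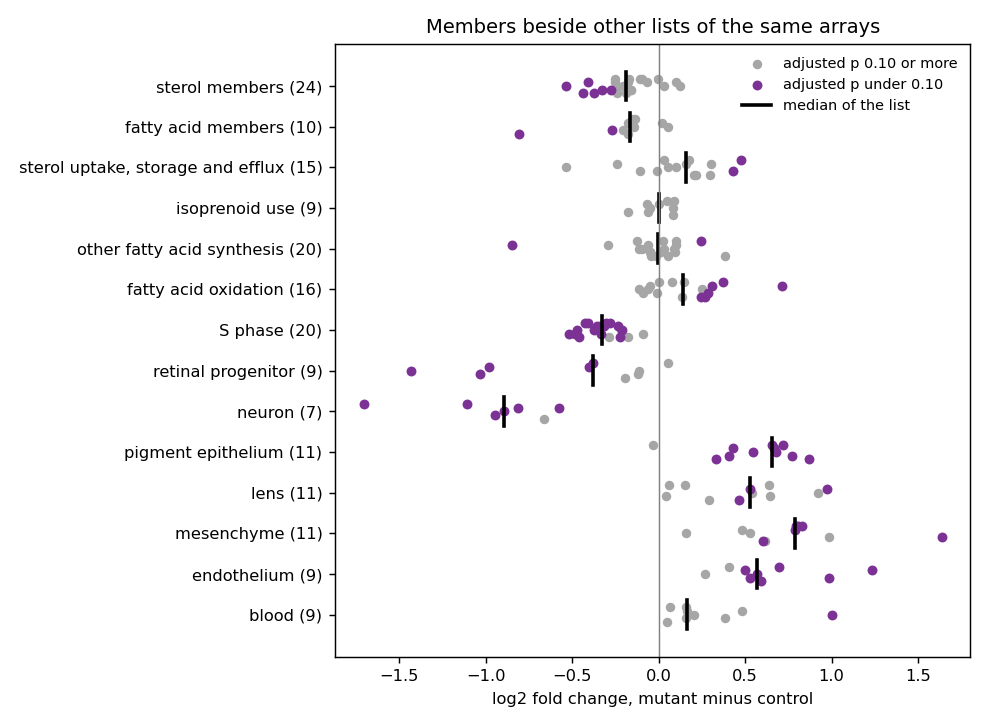
Log2 difference, mutant minus control, of each measured gene (horizontal axis, 1 point per gene) in the sterol and fatty acid lists and in other lists of the same arrays, with the number of genes in brackets, purple points for an adjusted p under 0.10 and black lines for medians. The sterol and fatty acid medians are -0.19 and -0.16, that of sterol uptake, storage and efflux is 0.16 and that of S phase genes is -0.33.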

How the data were processed

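GFP-positive cells were sorted from embryonic eyes, and RNA of 3 mutant and 3 control pools was hybridised to Affymetrix arrays. The authors deposited linear intensity values from RMA, which corrects background, normalises between arrays and summarises probes. The sources used here name no tool version. Array medians were 12.9 to 13.1, and arrays have no read depth, so that their number limits precision. After log2 transformation, 64 control probe sets of 45101 were left out, and mutant was compared with control by limma (3.58.1, R 4.3.3) with Benjamini-Hochberg adjustment over 45037 probe sets. The methods add a 1.5-fold rule, do not name the statistic behind their p-values and describe a further check with SAM, which was not run here. Annotation gave 34945 probe sets 1 gene and 932 several (left out by gene), and did not list 9160. All 34 members are named, as are genes of the other lipid lists that met the 1.5-fold rule, and marker lists are given by counts. Members, lists and tests were chosen with earlier results of these data known. How embryos were divided among pools is unknown, so p-values measure the spread between pools. Alternatives changed scaling, dim filter, variance model, arrays and choice of probe set. On simulated data the fit recovered large changes and missed most small ones.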

Additional observations from a re-analysis of the deposited data

How the results depend on the processing

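Both medians stayed negative in all 15 alternatives, and no member was called higher in any. The dim filter, the variance models and the replicate block left each log2 difference of the members unchanged, so they could not move the medians. Without variance moderation 460 probe sets met the 1.5-fold rule, against 1195, and 709 probe sets, 4 sterol genes and 1 fatty acid gene were lower at an adjusted p under 0.10, against 2049, 6 and 2. Idi1, Lss, Insig1 and Fasn were lost and Mvd was gained. With an intensity trend in the prior variance 2887 probe sets, 11 sterol and 4 fatty acid genes were lower, and the cause was not tested. Without the dimmest 40% of probe sets, where fewer tests are adjusted for, 2658, 11 and 3 were. More probe sets were thus lower out of fewer, a larger share than the 4.55% with all of them. The shares of all genes and all probe sets given above include dim ones. Shares at the intensities of the members were not computed. With the median of each gene's probe sets 7 sterol and 3 fatty acid genes were lower, the sterol median was -0.14, and 0 fatty acid genes met the 1.5-fold rule. Leaving out 1 array, 886 to 1232 probe sets met that rule, 816 to 1538 probe sets, 1 to 6 sterol genes and 1 to 2 fatty acid genes were lower, and the medians were -0.2195 to -0.1637 for sterol and -0.20 to -0.13 for fatty acid genes. Replicate numbers did not pair the samples (correlations of -0.011, -0.001 and -0.008), and with the number as a replicate block 1367 probe sets, 4 sterol genes and 1 fatty acid gene were lower, Idi1, Stard4 and Fasn being lost. Genes near 0 changed sign without a call. These were Ebp (0.0051 with median centring, 0.008 with array weights, -0.0791 to 0.0746 without 1 array), Acss2 (-0.0007 after quantile normalization, -0.0756 to 0.079 without 1 array), Pmvk (-0.0088 to 0.0723 without 1 array) and Fdps (0.0001 with the median of its probe sets). Background correction was not varied, since the values are already summarised.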
